A study of Danio rerio with 15 samples.

Results

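The acute response of the liver to 0.1 Gy was examined in 6 of the 15 arrays of the series, the 3 arrays titled as adult zebrafish given the low dose and the 3 titled as non-irradiated controls. The adult 0.1 Gy group consisted of AB males that were 16 weeks old and had received whole-body γ-rays of a caesium source 4 hours before they were sacrificed. The control group consisted of AB males of the same age at 0 Gy, and the irradiated males were drawn from the control cohort. Every array was hybridised with liver RNA of a pool of a pair of males, and no genotype or agent other than radiation separated the groups. The adult 1.0 Gy group, also taken 4 hours after irradiation, served to compare the doses, and the long-term response groups, irradiated at 0.1 or 1.0 Gy as embryos of 24 hours and also sampled at 16 weeks, entered the F-test over the groups and the estimate of the spread. Because all pools of the 2 groups came from 1 cohort, the errors measure the spread between pools. A sham irradiation, the feeding state and the time of day are not described in the sources used here, so radiation cannot be told apart from handling, feeding or time of day.

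For 4 of the 6 arrays the source name read as the opposite group. These were adult 0.1 Gy replicates 1 and 2, whose source names mention no irradiation, and control replicates 2 and 3, whose source names mention irradiation as adults. Groups were taken from the titles, which the treatment and timing entries matched. Across the 8634 probe sets tested, the root mean square difference was 0.333 to 0.377 log2 units between adult 0.1 Gy arrays, 0.310 to 0.509 between control arrays and 0.702 to 0.758 between the groups. Adult 0.1 Gy replicates 1 and 2 differed from replicate 3 by 0.333 to 0.344 and from control replicate 1 by 0.705 to 0.715. Control replicates 2 and 3 differed from adult 0.1 Gy replicate 3 by 0.739 to 0.758 and from control replicate 1 by 0.467 to 0.509. By their values, all 4 arrays lay nearer to the arrays that shared their title than to those of the opposite group. In the whole series, adult 0.1 Gy replicate 2 was nearest to adult 1.0 Gy replicate 1, at 0.323. Control replicate 1 was nearest to embryo 1.0 Gy replicate 1, at 0.452. Results are nevertheless also given without these 4 arrays, a fit in which adult 0.1 Gy replicate 3 and control replicate 1 each stood alone and were assumed to vary like the remaining groups.

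**Figure D1:**
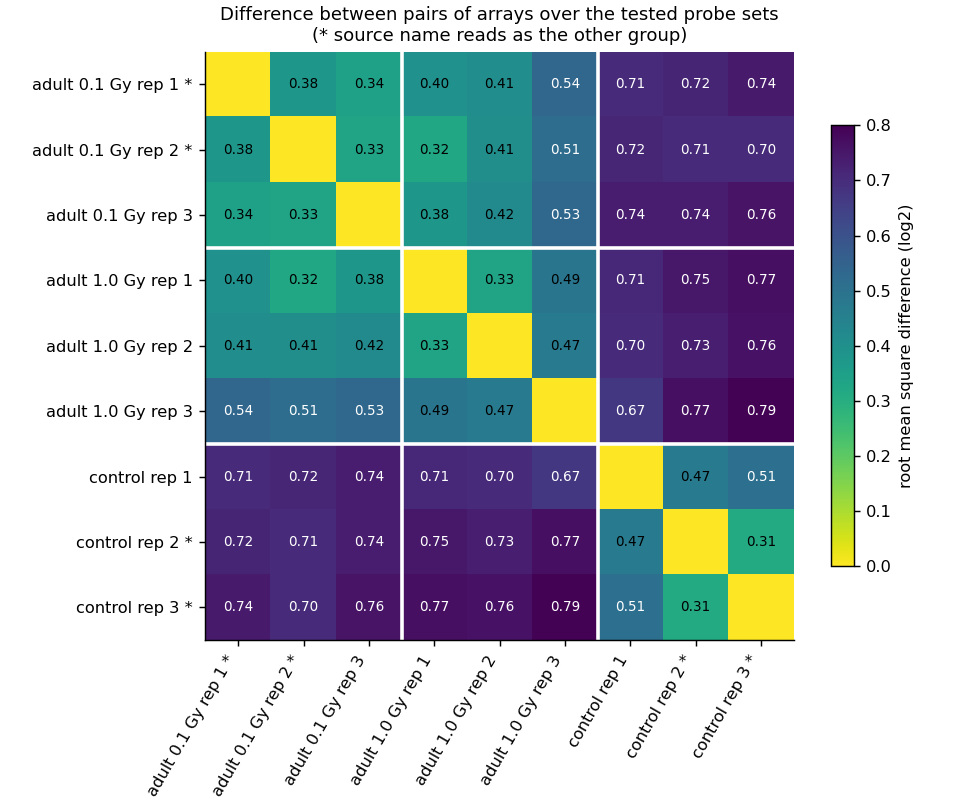
Root mean square difference (log2) between each pair of the adult 0.1 Gy, adult 1.0 Gy and control arrays over the 8634 tested probe sets, with an asterisk on arrays whose source name reads as the other group. Adult 0.1 Gy arrays differ by 0.333 to 0.377 among themselves and by 0.702 to 0.758 from the controls.

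The liver makes most plasma proteins, and these pass through the endoplasmic reticulum, where chaperones fold them before vesicles carry them to the surface. Hepatocytes also switch between storing and releasing fuel under the control of insulin, glucocorticoids and thyroid hormone. Ionizing radiation breaks DNA, and the transcription factor p53 then raises genes that arrest the cell cycle or promote apoptosis.

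Array medians lay between 5.02 and 5.14 log2 units. Hepatocyte markers were at the top of the scale in both groups, with fabp10a, a liver fatty acid carrier, at 15.005, 15.022 and 15.033 in adult 0.1 Gy livers and at 15.032, 15.053 and 15.023 in control livers. Other tissues were present in part. The summed signal of 12 exocrine pancreas markers was 13.6 to 15.03 log2 units in adult 0.1 Gy livers and 14.6 to 16.1 in control livers, and that of 6 intestine markers was 7.43 to 8.67 against 7.8 to 12.0. The insulin gene ins read 6.60, 7.52 and 6.65 in adult 0.1 Gy livers, against 12.25, 7.73 and 8.3 in control livers, so that control replicate 1 stood out for endocrine pancreas. It was also the highest control for intestine markers, with fabp2 at 11.18, 8.98 and 6.80 and chia.2 at 10.17, 6.73 and 4.34 in control livers. Control replicate 1 is the only control in the fit without the 4 arrays. None of the tested pancreas or intestine markers was called, with medians of -0.95 for exocrine pancreas and -2.51 for endocrine pancreas. Erythrocyte markers summed to 12.7 to 13.2 against 11.9 to 12.7 and leukocyte markers to 10.7 to 11.1 against 9.87 to 10.7, and egg-yolk protein markers, which mark the female liver, to 5.80 to 5.95 against 5.56 to 5.61. The part of these other cells in the results was not tested, and a smaller share of a cell type cannot be told apart from less mRNA in each cell.

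Of the 8634 probe sets, 2967 (34.4%) were called, meaning that the adjusted p was below 0.05 both for the F-test over the 5 groups and for adult 0.1 Gy against control. Of these, 1053 were higher and 1914 lower in adult 0.1 Gy livers. Decreases were the more frequent, except among the largest differences. By at least 1 log2 unit, 325 were higher and 440 lower, and by at least 3 log2 units 24 were higher and 4 lower. The median size of a called difference was 0.69 log2 units, with a median standard error of 0.15. The 3 arrays of a group lay all above or all below those of the other in 4463 probe sets (51.7%), of which 2036 were higher and 2427 lower in adult 0.1 Gy livers, and 2814 called probe sets were of this kind. With each gene read by its probe set of highest mean, 692 of 5626 genes were called higher (12.3%) and 1363 lower (24.2%), and the median over all tested genes was -0.03. The counts of gene lists given below are over genes and stand beside these 2 shares. Lists and members were chosen with earlier results of these data known, so their counts are descriptions and not independent tests. Without the 4 arrays whose source names conflict, 923 probe sets were called, 392 higher and 531 lower, and 830 of them were among the 2967.

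**Figure D2:**
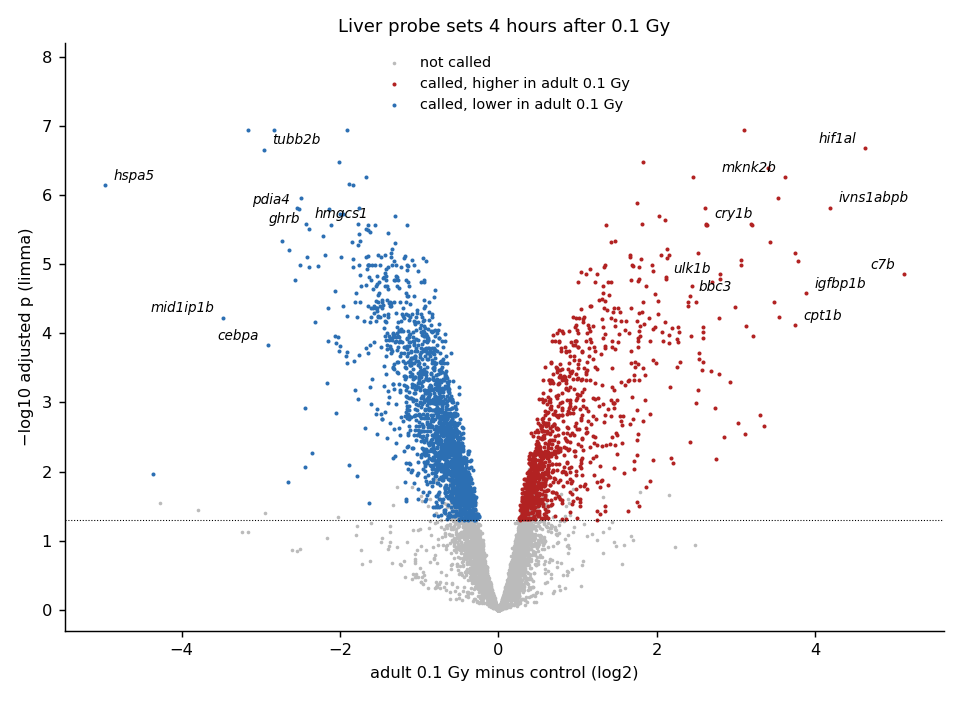
Difference between adult 0.1 Gy and control livers (log2, horizontal axis) against the adjusted p of limma as its negative decimal logarithm (vertical axis) for 8634 probe sets, with the dotted line at an adjusted p of 0.05. Red points are the 1053 called probe sets that were higher and blue points the 1914 that were lower, and grey points above the line failed the F-test over the groups.

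The largest decrease among named genes was that of hspa5, the BiP chaperone that binds unfolded proteins in the endoplasmic reticulum. Its log2 expression was 6.09, 6.22 and 6.50 in adult 0.1 Gy livers, against 11.20, 11.41 and 11.10 in control livers. The groups were far apart and each was tight, a 31.4-fold decrease (-4.97 ± 0.35, adjusted p = 7.3e-07). Values of this form are the mean of adult 0.1 Gy arrays minus that of control arrays on the log2 scale, with its standard error. Of 20 tested genes for chaperones and folding enzymes of the endoplasmic reticulum, 15 were called lower and 0 higher, with a list median of -0.83. The protein disulfide isomerase pdia4 read 6.83, 6.35 and 6.85 in adult 0.1 Gy livers, against 9.09, 9.42 and 9.07 in control livers (-2.52 ± 0.20, adjusted p = 1.6e-06), and the groups did not overlap. The chaperone hyou1 (hypoxia up-regulated 1) read 6.37, 6.38 and 6.60 in adult 0.1 Gy livers, against 8.10, 9.02 and 8.59 in control livers (-2.12 ± 0.18, adjusted p = 2.8e-06). The secreted folding factor manf (-2.01), the Hsp90 of this compartment hsp90b1 (-1.74), and the lectin chaperones canx (-1.64), calr3a (-1.12) and calr3b (-1.82) also fell. Without the 4 arrays, 7 of the 20 remained called lower, among them hspa5 (-4.70), pdia4 (-2.25) and hyou1 (-1.50). Summed exocrine pancreas markers were 13.6 to 15.03 in adult 0.1 Gy livers and 14.6 to 16.1 in control livers, and their part in these decreases was not tested.

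Genes that signal or relieve unfolded protein stress went both ways, with 4 of 19 called higher and 8 lower, and 5 lower without control replicate 2. The strongest increase was that of ppp1r15a, a phosphatase subunit that reverses the stress block on translation. It read 8.74, 9.43 and 8.33 in adult 0.1 Gy livers, against 5.83, 5.93 and 7.15 in control livers (2.53 ± 0.39, adjusted p = 0.00023). All arrays of adult 0.1 Gy livers were above all controls, and the 3 other probe sets of the gene also rose, by 2.0 to 2.58. The glutathione-degrading enzyme chac1 read 12.41, 12.39 and 12.86 in adult 0.1 Gy livers, against 8.83, 10.36 and 10.92 in control livers (2.52 ± 0.45, adjusted p = 0.00066), with control replicate 1 the lowest. The sensor kinase eif2ak3 (PERK) fell (-1.34 ± 0.23, adjusted p = 0.00054), although its other 2 tested probe sets differed by 0.23 and 0.07 and were not called, and the transcription factor atf4a fell by less than 1 log2 unit (-0.70 ± 0.11, adjusted p = 0.00024). The factor xbp1 did not pass, at 10.79, 10.64 and 11.22 in adult 0.1 Gy livers, against 10.69, 11.57 and 11.93 in control livers (-0.51, adjusted p = 0.11), nor did atf3, a transcription factor of the stress response (-0.21, adjusted p = 0.37) or atf4b, the duplicate of atf4a (-0.07, adjusted p = 0.8). In the fit without the 4 arrays 3 of the genes were called higher and 0 lower.

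Further genes of the secretory pathway were lower as well. Of 34 tested genes for translocation into the endoplasmic reticulum and N-glycosylation, 20 were called lower and 0 higher (median -0.49), and of 28 for vesicle coats and traffic, 20 were lower and 0 higher (median -0.60). The translocating chain protein tram1 read 8.15, 8.2 and 7.99 in adult 0.1 Gy livers, against 9.25, 10.67 and 10.57 in control livers (-2.05 ± 0.30, adjusted p = 0.00014), with control replicate 1 nearest to the irradiated livers. The signal recognition particle subunit srp9 (-1.27) and the oligosaccharyltransferase subunits dad1 (-1.08), ddost (-0.95), rpn1 (-0.90) and stt3a (-0.86) fell. Among traffic genes, the coat subunits arcn1a (-1.45), sec23b (-1.17), sec24b (-1.08) and sec24c (-1.0), the retrieval receptor kdelr3 (-1.29) and the cargo receptor lman1 (-0.75) fell. In each list 1 gene was called lower without the 4 arrays, tram1 (-1.27) and kdelr3 (-0.94), and the translocation list had 12 without control replicate 3 and 24 without control replicate 1.

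The largest increases came from genes of several roles, and igfbp1b, cpt1b, glula and igfbp1a among them are described with the fasting genes below. The complement component c7b had the largest difference, at 11.81, 9.83 and 12.40 in adult 0.1 Gy livers, against 7.14, 5.64 and 5.88 in control livers (5.13 ± 0.54, adjusted p = 1.4e-05), a 35-fold increase, with adult 0.1 Gy replicate 2 the lowest of the irradiated arrays and still above every control. The hypoxia-inducible factor subunit hif1al read 9.42, 9.58 and 9.89 in adult 0.1 Gy livers, against 4.83, 5.71 and 4.46 in control livers (4.63 ± 0.28, adjusted p = 2.1e-07). Controls lay near the array medians and every irradiated pool well above them. The kelch protein gene ivns1abpb read 9.78, 10.15 and 10.34 in adult 0.1 Gy livers, against 5.80, 5.63 and 6.30 in control livers (4.18 ± 0.32, adjusted p = 1.5e-06), while its duplicate ivns1abpa, chosen after its values were seen, fell by 1.26 ± 0.18 (adjusted p = 0.00014).

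Other genes among the 15 largest increases were the sulfotransferase sult2st1 (3.78), the MAP kinase-interacting kinase mknk2b (3.62), the hormone-responsive transcription factor klf9 (3.54), the anion transporter family member slc26a5 (3.48), the mitochondrial carrier ucp2 (3.21), the linker histone histh1l1 (3.2) and the transporter slc16a9a (3.13). The thyroid hormone receptor thraa read 8.36, 8.42 and 8.69 in adult 0.1 Gy livers, against 5.59, 5.20 and 5.38 in control livers (3.10 ± 0.16, adjusted p = 1.1e-07), and both groups were tight. For mknk2b the other 2 tested probe sets gave 3.43 and 3.74. All 15 largest increases kept their call when any 1 array was left out, and without the 4 arrays 14 did, the exception being cpt1b (3.05).

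Among the largest decreases after hspa5 was mid1ip1b, a regulator of fatty acid synthesis, at 7.0, 6.68 and 6.72 in adult 0.1 Gy livers, against 10.70, 9.71 and 10.42 in control livers (-3.48 ± 0.45, adjusted p = 5.9e-05), although its other tested probe set gave -0.60. The β-tubulin tubb2b (-2.96), the dynein light chain dynll1 (-2.84), the β-actin actb1 (-2.49), the RNA-binding protein rbmx (-2.73), the scaffold kinase caska (-2.50) and samd11 (-2.36) also fell by more than 2 log2 units. The other probe set of rbmx differed by -0.03 and was not called, and the probe set of tubb2b is of a type that can also read related tubulins. The creatine synthesis enzyme gatm read 9.26, 7.89 and 8.58 in adult 0.1 Gy livers, against 11.07, 11.38 and 10.63 in control livers (-2.45 ± 0.64, adjusted p = 0.0086). Its irradiated pools varied, and its call was lost without adult 0.1 Gy replicate 2 or 3, any 1 of the 3 controls, embryo 0.1 Gy replicate 3 or embryo 1.0 Gy replicate 2, with differences from -2.79 to -2.11 over all fits that left out 1 array. Without the 4 arrays, gatm (-2.49) and samd11 (-0.82) were the 2 of the 15 largest decreases that were not called.

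Genes that rise in fasting mostly rose, with 13 of 20 tested called higher and 0 lower (median 1.11), and 8 of 20 without the 4 arrays. The insulin-like growth factor binding protein igfbp1b, which insulin represses in mammals, read 10.99, 11.40 and 10.65 in adult 0.1 Gy livers, against 6.34, 7.09 and 7.98 in control livers (3.88 ± 0.45, adjusted p = 2.6e-05), and its duplicate igfbp1a read 12.95, 12.47 and 11.83 in adult 0.1 Gy livers, against 8.55, 7.95 and 10.85 in control livers (3.30 ± 0.66, adjusted p = 0.0015). The irradiated pools were above every control for both genes, and control replicate 3 was the highest control. The fatty acid import enzyme cpt1b read 10.86, 11.13 and 11.06 in adult 0.1 Gy livers, against 8.01, 6.78 and 7.05 in control livers (3.74 ± 0.50, adjusted p = 7.7e-05). The pyruvate dehydrogenase kinase pdk2b (2.16), the lipid phosphatase lpin1a (1.64) and the glutamine synthetase glula (3.41) rose too. The gluconeogenic enzyme pck1 was higher in every irradiated pool, at 12.38, 12.32 and 12.28 in adult 0.1 Gy livers, against 10.33, 12.08 and 11.34 in control livers, but did not pass (1.08, adjusted p = 0.057). The transcription factor foxo3b overlapped between the groups, at 8.79, 8.78 and 9.56 in adult 0.1 Gy livers, against 7.94, 9.09 and 8.68 in control livers (0.47, adjusted p = 0.22).

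**Figure D3:**
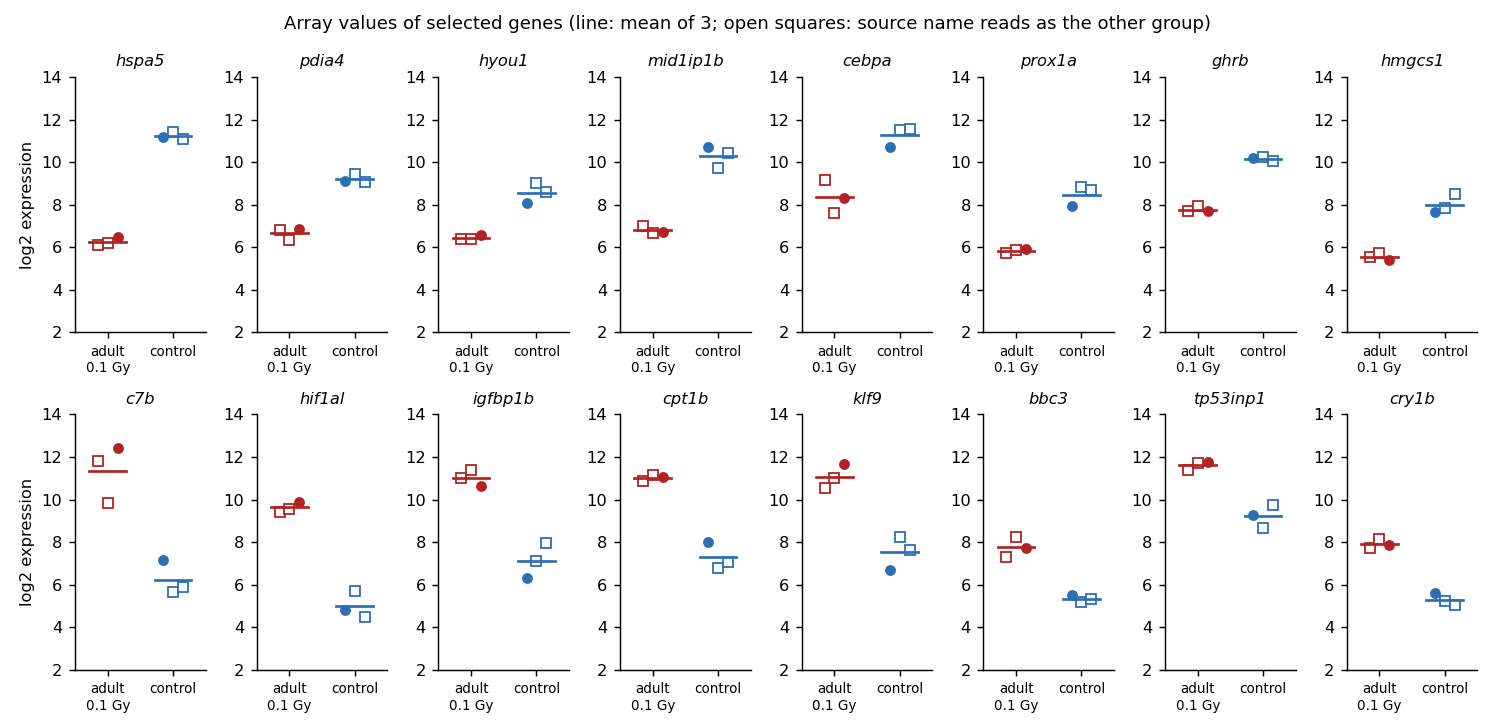
Log2 expression of 16 genes in each of the 3 adult 0.1 Gy arrays (left, red) and the 3 control arrays (right, blue), with a line at the mean of 3 and open squares for arrays whose source name reads as the other group. Hspa5 lies at 6.09 to 6.50 in adult 0.1 Gy livers and at 11.10 to 11.41 in control livers. No gene shown overlaps between the groups, but the largest increases and decreases were chosen among genes without overlap.

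Genes of lipid synthesis were lower more often than higher. In sterol synthesis 5 of 8 tested genes were called lower and 0 higher (median -0.80), and in fatty acid and triglyceride synthesis 8 of 21 were lower and 1 higher (median -0.36). The sterol pathway enzyme hmgcs1 read 5.53, 5.73 and 5.42 in adult 0.1 Gy livers, against 7.64, 7.84 and 8.51 in control livers (-2.43 ± 0.20, adjusted p = 2.6e-06). The acetyl-CoA acetyltransferase acat2 read 7.75, 7.66 and 7.68 in adult 0.1 Gy livers, against 9.23, 10.19 and 10.14 in control livers (-2.16 ± 0.31, adjusted p = 0.00013), and nsdhl (-0.95), fdps (-0.97) and ggps1 (-0.64), which act later in the pathway, also fell. The other probe set of ggps1 gave -0.41 and was not called, and that of fdps -0.49. In both hmgcs1 and acat2 the groups were clearly apart. Of the fatty acid genes, mid1ip1l, related to mid1ip1b, read 7.5, 7.48 and 7.26 in adult 0.1 Gy livers, against 9.32, 9.44 and 9.47 in control livers (-2.0 ± 0.29, adjusted p = 0.00015). The acetyl-CoA synthetase acss2 (-1.15), the NADPH-forming enzyme pgd (-1.15) and the acyltransferase agpat2 (-0.79) fell, and the lipid phosphatase lpin2 rose (0.82). The related lpin1a, which also rose, is described with the fasting genes and was not counted in this list. Of the 8 sterol genes 4 were called lower without the 4 arrays, and of the 21 fatty acid genes 3 lower and 1 higher.

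Of 23 tested genes of fatty acid oxidation and the peroxisome, 2 were called higher and 9 lower (median -0.03), with 5 lower without adult 0.1 Gy replicate 3 and 2 lower without the 4 arrays. The import enzyme cpt1b, which rose, is described with the fasting genes and was not counted in this list. The inner-membrane enzyme cpt2 read 8.0, 8.29 and 8.42 in adult 0.1 Gy livers, against 9.55, 9.13 and 9.25 in control livers (-1.07 ± 0.19, adjusted p = 0.00056). The peroxisome assembly factor pex3 read 8.75, 8.40 and 8.75 in adult 0.1 Gy livers, against 9.96, 9.37 and 9.80 in control livers (-1.08 ± 0.15, adjusted p = 0.00013). Glycolysis and glycogen genes had 2 of 30 called higher and 7 lower (median -0.15), and without adult 0.1 Gy replicate 1 or control replicate 3 the count of lower genes was 4, and without the 4 arrays 1. The glycogen-targeting phosphatase subunits moved in opposite directions, with ppp1r3b at 7.19, 7.54 and 6.97 in adult 0.1 Gy livers, against 8.85, 8.74 and 8.61 in control livers (-1.50 ± 0.18, adjusted p = 4e-05) and ppp1r3ca at 10.85, 11.20 and 11.02 in adult 0.1 Gy livers, against 9.77, 9.48 and 10.19 in control livers (1.21 ± 0.28, adjusted p = 0.0038). The groups overlapped in neither gene. The sugar phosphate enzymes pgm1 (-0.95) and ugp2b (-0.85) fell. The share of glycolysis and glycogen genes called lower was near that over all genes.

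Among p53 targets, 10 of 17 tested genes were called higher and 3 lower (median 0.54). The BH3-only cell death gene bbc3 (PUMA) read 7.30, 8.22 and 7.73 in adult 0.1 Gy livers, against 5.51, 5.18 and 5.32 in control livers (2.42 ± 0.28, adjusted p = 2.9e-05), and the stress protein gene tp53inp1 read 11.40, 11.71 and 11.78 in adult 0.1 Gy livers, against 9.29, 8.65 and 9.76 in control livers (2.40 ± 0.29, adjusted p = 4e-05). Both were higher in every irradiated pool, by 5.35-fold and 5.27-fold. The BH3-only gene pmaip1 (NOXA) read 6.46, 7.90 and 6.37 in adult 0.1 Gy livers, against 4.93, 4.80 and 5.14 in control livers (1.95 ± 0.30, adjusted p = 0.00024), with adult 0.1 Gy replicate 2 the highest, and its other probe set gave 0.34. The cyclin ccng2 (1.02), gadd45aa, of the growth arrest and DNA damage family (0.91), and ddb2, a DNA damage recognition protein (0.86), rose by less, and mdm2, the ubiquitin ligase that limits p53, read 6.81, 6.87 and 7.07 in adult 0.1 Gy livers, against 6.21, 6.52 and 6.41 in control livers (0.54 ± 0.11, adjusted p = 0.0024). The sestrin sesn3 fell (-1.25 ± 0.22, adjusted p = 0.00055). Of the 17 targets 4 were called higher and 1 lower without the 4 arrays, with bbc3 at 2.22, tp53inp1 at 2.49 and pmaip1 at 1.44. The count of 3 lower was 1 without any 1 of the 3 controls, adult 0.1 Gy replicate 3, adult 1.0 Gy replicate 1 or embryo 0.1 Gy replicate 2 or 3. It was 2 in every other fit that left out 1 array.

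Members of the Bcl-2 family and caspases had 11 of 18 called higher and 1 lower (median 0.66), and 6 and 1 without the 4 arrays. The initiator caspase casp9 read 6.99, 6.95 and 7.81 in adult 0.1 Gy livers, against 5.14, 5.09 and 5.12 in control livers (2.13 ± 0.21, adjusted p = 8.2e-06). Genes that oppose apoptosis rose beside those that promote it. The survival gene mcl1a read 10.20, 10.46 and 10.56 in adult 0.1 Gy livers, against 9.17, 8.73 and 8.88 in control livers (1.48 ± 0.13, adjusted p = 4.7e-06), and the Bcl-2 family member bcl2l10 (1.43) and the caspase inhibitor xiap (0.95) rose, as did the mitophagy receptor bnip3lb (1.57), whose other probe set gave 0.28 and was not called. Cytochrome c, which activates casp9 once it leaves the mitochondrion, was lower, with cycsb at 9.92, 10.06 and 10.04 in adult 0.1 Gy livers, against 11.36, 12.13 and 12.04 in control livers (-1.84 ± 0.19, adjusted p = 1.1e-05). Counted in this list though neither a Bcl-2 family member nor a caspase, cycsb was its 1 gene called lower. The BH3-only gene bbc3 was counted with the p53 targets and not in this list. Of 24 tested DNA repair genes, 0 were called higher and 6 lower (median -0.25), a share of decreases near that over all genes. The count of lower genes was 3 without control replicate 2 or 3 or embryo 1.0 Gy replicate 2, and 0 without the 4 arrays. The endonuclease apex1 read 5.19, 4.92 and 4.82 in adult 0.1 Gy livers, against 5.73, 6.17 and 6.32 in control livers (-1.10 ± 0.20, adjusted p = 0.00085) and the replication clamp pcna read 7.43, 7.03 and 6.91 in adult 0.1 Gy livers, against 8.01, 8.11 and 8.01 in control livers (-0.92 ± 0.22, adjusted p = 0.0052). The histone gene h2ax failed the F-test over the groups and was not called (-0.42, adjusted p = 0.049).

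Immediate early genes, which respond within minutes to growth factors and stress, had 17 of 33 called higher and 2 lower (median 0.86), and 11 and 1 without the 4 arrays. Spread between pools was wide here. The AP-1 subunit junba read 9.53, 11.19 and 9.74 in adult 0.1 Gy livers, against 6.07, 7.05 and 8.28 in control livers (3.02 ± 0.62, adjusted p = 0.002), with adult 0.1 Gy replicate 2 the highest, and the transcription factor csrnp1a read 6.73, 5.04 and 6.83 in adult 0.1 Gy livers, against 3.22, 3.17 and 3.26 in control livers (2.99 ± 0.37, adjusted p = 4.2e-05), with that replicate the lowest of the irradiated pools. The phosphatase dusp6 read 8.26, 8.53 and 9.12 in adult 0.1 Gy livers, against 6.45, 7.01 and 7.12 in control livers (1.78 ± 0.22, adjusted p = 5.1e-05), while its other tested probe set gave 0.35 and was not called. The AP-1 subunit fosab read 8.38, 11.70 and 8.44 in adult 0.1 Gy livers, against 6.97, 5.37 and 8.75 in control livers (2.48, adjusted p = 0.12) and the growth response factor egr1 read 6.59, 9.18 and 6.41 in adult 0.1 Gy livers, against 6.33, 5.32 and 8.21 in control livers (0.78, adjusted p = 0.52), and neither was called. In both, adult 0.1 Gy replicate 2 was the highest and control replicate 3 lay above the remaining irradiated pools.

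Targets of glucocorticoids, the steroid stress hormones, had 9 of 16 called higher and 0 lower (median 0.78), and 5 of 16 without the 4 arrays. The factor tsc22d3 (GILZ) read 10.76, 11.28 and 11.004 in adult 0.1 Gy livers, against 8.29, 9.30 and 9.90 in control livers (1.85 ± 0.34, adjusted p = 0.00091), and the cortisol-inactivating enzyme hsd11b2 read 10.77, 10.74 and 11.38 in adult 0.1 Gy livers, against 9.19, 9.68 and 9.52 in control livers (1.5 ± 0.28, adjusted p = 0.00093). The tyrosine aminotransferase tat (1.14) rose, and klf9, named above, read 10.55, 10.99 and 11.65 in adult 0.1 Gy livers, against 6.70, 8.24 and 7.63 in control livers. The co-chaperone fkbp5 read 11.73, 12.04 and 12.195 in adult 0.1 Gy livers, against 8.6, 11.23 and 10.39 in control livers (1.92 ± 0.55, adjusted p = 0.014), with control replicate 1 far below the other controls. The glucocorticoid receptor gene itself, nr3c1, did not pass, at 7.61, 8.25 and 8.10 in adult 0.1 Gy livers, against 8.83, 7.85 and 8.0 in control livers (-0.24, adjusted p = 0.44).

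Circadian clock genes had 8 of 23 called higher and 1 lower (median 0.28), and 3 and 1 without the 4 arrays, with 5 higher without control replicate 2. The cryptochrome cry1b, a repressor of the clock, read 7.73, 8.14 and 7.88 in adult 0.1 Gy livers, against 5.59, 5.24 and 5.07 in control livers (2.62 ± 0.22, adjusted p = 2.6e-06). The clock repressors ciarta (1.85 ± 0.31, adjusted p = 0.0004) and nfil3-6 (1.78 ± 0.24, adjusted p = 7.9e-05) and the light-responsive cry-dash (1.73 ± 0.28, adjusted p = 0.00031, other probe set 0.52) rose, whereas bhlhe40 read 9.12, 10.02 and 9.33 in adult 0.1 Gy livers, against 11.38, 10.70 and 11.27 in control livers (-1.63 ± 0.28, adjusted p = 0.00059). No irradiated pool overlapped a control in these genes. The period gene per2 did not pass, at 7.84, 7.86 and 7.77 in adult 0.1 Gy livers, against 8.35, 7.68 and 7.69 in control livers (-0.08, adjusted p = 0.82).

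In cytokine and NF-kB signalling 7 of 26 tested genes were called higher and 2 lower (median 0.32), and 5 and 2 without the 4 arrays, with 4 higher without adult 0.1 Gy replicate 3. The feedback inhibitor socs3a read 9.53, 9.79 and 9.30 in adult 0.1 Gy livers, against 5.25, 6.47 and 8.12 in control livers (2.92 ± 0.50, adjusted p = 0.0005), and the NF-kB inhibitor nfkbiab read 11.47, 11.41 and 11.40 in adult 0.1 Gy livers, against 8.84, 9.61 and 10.60 in control livers (1.74 ± 0.39, adjusted p = 0.0035). The irradiated pools were tight and the controls spread widely in both. The kinase duplicates mapk14a (-0.89 ± 0.13, adjusted p = 0.00012) and mapk14b (1.32 ± 0.19, adjusted p = 0.00012, other probe sets 0.41 and 0.64) differed in direction, as did the interferon regulatory factors irf9 (-0.96) and irf7 (1.24). The cytokine feedback gene cisha read 7.52, 8.45 and 9.28 in adult 0.1 Gy livers, against 6.57, 5.98 and 7.95 in control livers (1.59, adjusted p = 0.12), its duplicate cishb differed by 0.93 (adjusted p = 0.26) and nfkb2 by 0.10 (adjusted p = 0.68), and none of the 3 passed. Of acute phase, complement and coagulation genes 1 of 26 was called higher (c7b) and 1 lower (the antimicrobial peptide gene leap2, -1.05), and 1 and 3 without the 4 arrays. The apolipoprotein gene apoea, at 5.20, 4.89 and 5.39 in adult 0.1 Gy livers, against 12.70, 9.97 and 5.65 in control livers, was not called because it failed the F-test over the groups (-4.28, adjusted p = 0.029), and its 3 controls lay far apart. Innate immunity genes had 2 of 21 called higher and 5 lower, and 1 and 4 without the 4 arrays. The count of higher genes was 4 without control replicate 1 or embryo 1.0 Gy replicate 3 and 1 without adult 0.1 Gy replicate 1 or 3. In this list the signalling adaptor mavs read 6.51, 6.87 and 6.50 in adult 0.1 Gy livers, against 7.55, 7.62 and 7.59 in control livers (-0.96 ± 0.12, adjusted p = 5.9e-05).

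Growth hormone and insulin-like growth factor genes had 5 of 16 called higher and 3 lower (median 0.22), with igfbp1a and igfbp1b the largest increases. The growth hormone receptor ghrb read 7.69, 7.93 and 7.69 in adult 0.1 Gy livers, against 10.18, 10.24 and 10.05 in control livers (-2.39 ± 0.21, adjusted p = 3.1e-06), and its duplicate ghra read 5.62, 5.81 and 5.59 in adult 0.1 Gy livers, against 6.61, 6.40 and 6.36 in control livers (-0.78 ± 0.17, adjusted p = 0.0024). Receptor transcripts were lower in every irradiated pool, more so for ghrb. The insulin receptor substrate irs2a rose (0.94 ± 0.14, adjusted p = 0.00015), and igf2b fell (-1.31 ± 0.32, adjusted p = 0.0059). The main hormone of the axis, igf1, did not pass, at 9.44, 9.60 and 9.54 in adult 0.1 Gy livers, against 9.58, 9.95 and 9.94 in control livers (-0.30, adjusted p = 0.097). In this axis 3 were called higher and 1 lower without the 4 arrays, with ghrb at -2.49.

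Nuclear receptors and their coregulators had 6 of 34 called higher and 9 lower (median 0.02), and 5 and 0 without the 4 arrays, with 5 lower without control replicate 3. Besides thraa, the bile acid receptor relative nr1h5 read 9.86, 10.12 and 10.53 in adult 0.1 Gy livers, against 9.05, 8.24 and 7.92 in control livers (1.77 ± 0.25, adjusted p = 0.00013), the oxysterol receptor nr1h3 rose (1.22 ± 0.18, adjusted p = 0.00018) and hnf4b rose (1.22 ± 0.23, adjusted p = 0.0009). The oestrogen receptor duplicates moved apart, with esr2b at 9.22, 8.99 and 9.33 in adult 0.1 Gy livers, against 7.46, 8.36 and 7.39 in control livers (1.44 ± 0.27, adjusted p = 0.001) and esr2a at 7.06, 6.51 and 6.86 in adult 0.1 Gy livers, against 7.58, 7.45 and 7.36 in control livers (-0.65 ± 0.15, adjusted p = 0.0046). Of 19 liver transcription factors, 3 were called higher and 4 lower, and 2 each way without the 4 arrays. The C/EBP factor cebpa, which maintains hepatocyte metabolism, read 9.15, 7.62 and 8.31 in adult 0.1 Gy livers, against 10.73, 11.52 and 11.56 in control livers (-2.91 ± 0.42, adjusted p = 0.00015), and its relative cebpb read 10.69, 10.66 and 10.32 in adult 0.1 Gy livers, against 9.68, 9.18 and 9.80 in control livers (1.01 ± 0.17, adjusted p = 0.00044). Each was separated from the controls, in opposite directions. The homeobox factor prox1a read 5.72, 5.89 and 5.90 in adult 0.1 Gy livers, against 7.94, 8.82 and 8.67 in control livers (-2.64 ± 0.25, adjusted p = 6.3e-06), the zinc-finger factor gata6 (-1.15) and the nuclear receptor nr5a2 (-0.91) fell, and hnf4a did not pass, at 8.14, 8.41 and 8.33 in adult 0.1 Gy livers, against 7.43, 8.63 and 8.53 in control livers (0.10, adjusted p = 0.75).

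Of 8 tested genes of haem synthesis and iron, 4 were called lower and 2 higher, and 3 and 1 without the 4 arrays. The first enzyme alas1 read 9.11, 8.84 and 9.46 in adult 0.1 Gy livers, against 10.80, 10.52 and 11.14 in control livers (-1.69 ± 0.36, adjusted p = 0.0024) and the late enzyme cpox read 6.40, 6.46 and 6.74 in adult 0.1 Gy livers, against 8.72, 9.21 and 9.30 in control livers (-2.54 ± 0.20, adjusted p = 1.5e-06). The second enzyme alad (-1.05) and the glycine carrier slc25a38b (-1.16) fell, and the ferritin gene fthl27 rose (1.55). Summed erythrocyte markers were 12.7 to 13.2 in adult 0.1 Gy livers and 11.9 to 12.7 in control livers. Hypoxia-inducible factors and targets had 8 of 22 called higher and 4 lower (median 0.04). Beside hif1al, the subunit epas1a rose (0.89 ± 0.12, adjusted p = 9.4e-05), and the target vegfaa, a vessel growth factor, read 3.94, 4.10 and 4.07 in adult 0.1 Gy livers, against 4.91, 5.31 and 5.68 in control livers (-1.26 ± 0.17, adjusted p = 8.8e-05). The subunit hif1ab did not pass (-0.52, adjusted p = 0.092). Without adult 0.1 Gy replicate 1 or 2 the count of lower genes was 2, and without the 4 arrays 6 were called higher and 0 lower.

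Xenobiotic metabolism had 5 of 31 called higher and 6 lower, with sult2st1 at 8.08, 9.17 and 9.67 in adult 0.1 Gy livers, against 5.18, 5.54 and 4.86 in control livers and the bile acid enzyme cyp8b1.1 at 9.85, 9.93 and 9.67 in adult 0.1 Gy livers, against 11.05, 11.26 and 11.32 in control livers (-1.39 ± 0.14, adjusted p = 1.1e-05), and there were 2 higher without adult 0.1 Gy replicate 1, control replicate 3 or the 4 arrays and 3 without adult 1.0 Gy replicate 1 or control replicate 2. Antioxidant genes had 5 of 26 higher and 7 lower, with the thioredoxin-binding protein txnipa higher (1.41 ± 0.32, adjusted p = 0.0039), the glutathione reductase gsr lower (-0.87 ± 0.20, adjusted p = 0.0037) and the oxidative stress factor nfe2l2a not past the test (-0.14, adjusted p = 0.45). Without adult 0.1 Gy replicate 2 or 3 the antioxidant count of higher genes was 3, and that of lower genes was 4 without control replicate 3 and 0 without the 4 arrays. In amino acid, urea and one-carbon metabolism 6 of 38 were higher and 12 lower, with 3 higher without control replicate 1 and 2 lower without the 4 arrays. The glutamine synthetase glula read 10.81, 11.01 and 11.10 in adult 0.1 Gy livers, against 8.01, 7.16 and 7.52 in control livers (3.41 ± 0.22, adjusted p = 4.1e-07), the methionine adenosyltransferase mat2aa read 9.46, 9.95 and 9.98 in adult 0.1 Gy livers, against 7.76, 7.6 and 7.87 in control livers (2.05 ± 0.20, adjusted p = 7.4e-06), and the kinase bckdk, which restrains branched-chain amino acid breakdown, read 6.01, 6.23 and 6.31 in adult 0.1 Gy livers, against 8.85, 7.85 and 8.28 in control livers (-2.15 ± 0.26, adjusted p = 4.3e-05). The folate enzymes mthfd2 (-1.09) and mthfd1b (-0.95) fell.

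Mitochondrial ribosome and import genes were lower as a list. Of 69 tested, 37 were called lower and 2 higher (median -0.42), and 13 and 1 without the 4 arrays. The import receptor subunit tomm22 (-1.19), the translocase subunits timm50 (-1.62) and timm13 (-1.43) and the ribosomal proteins mrps23 (-1.52), mrpl1 (-1.44) and mrpl48 (-1.27) fell. For mrps23 the arrays read 5.44, 5.46 and 5.11 in adult 0.1 Gy livers, against 6.41, 6.87 and 7.28 in control livers (-1.52 ± 0.19, adjusted p = 5.6e-05), and the groups did not overlap. Respiratory chain genes had 10 of 39 called lower and 1 higher (median -0.16), a share of decreases near that over all genes. The succinate dehydrogenase subunit sdhb (-0.64) and the complex I assembly factor ndufaf1 (-0.60) were among the lower ones. In fits that left out 1 array at most 9 respiratory genes were called lower. The respiratory count of lower genes was 6 without adult 0.1 Gy replicate 1, adult 1.0 Gy replicate 2 or embryo 1.0 Gy replicate 2, 4 without control replicate 3 and 0 without the 4 arrays.

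In translation, 6 of 53 factors were called higher and 15 lower (median -0.04), near the shares over all genes, with 9 lower without control replicate 2 or 3 and 2 each way without the 4 arrays. The sensor kinase eif2ak3 was counted among these factors and had their largest decrease (-1.34), though its other tested probe sets were not called. The translation repressor eif4ebp3l read 9.58, 10.23 and 10.52 in adult 0.1 Gy livers, against 8.25, 8.40 and 8.42 in control livers (1.75 ± 0.23, adjusted p = 6.8e-05). The termination factor gspt1 read 5.75, 6.25 and 5.97 in adult 0.1 Gy livers, against 6.99, 7.37 and 7.28 in control livers (-1.23 ± 0.17, adjusted p = 9.3e-05). Ribosome biogenesis had 11 of 74 higher, such as the helicase ddx18 (1.67 ± 0.25, adjusted p = 0.00018) and sdad1 (1.51 ± 0.19, adjusted p = 4.4e-05), and 12 lower, such as nol9 (-1.11 ± 0.17, adjusted p = 0.00024). Its share of increases was near that over all genes, its share of decreases was below that, and 51 genes were not called. The count of lower genes was 18 without control replicate 1, 7 without adult 0.1 Gy replicate 3 and 6 without control replicate 2 or 3, and without the 4 arrays 4 were higher and 3 lower. Of 19 aminoacyl-tRNA synthetases 3 were lower, a count of 5 without control replicate 1 or embryo 0.1 Gy replicate 1, 1 without control replicate 2 or 3 or adult 0.1 Gy replicate 1 or 2, and 0 without the 4 arrays. Of 68 cytosolic ribosomal proteins on the array only 2 varied enough to be tested, and 0 were called.

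Splicing and RNA-binding protein genes had 37 of 97 called lower and 8 higher (median -0.29), and 9 and 3 without the 4 arrays. The core snRNP protein snrpd3 read 7.39, 7.6 and 7.39 in adult 0.1 Gy livers, against 9.39, 9.34 and 9.29 in control livers (-1.88 ± 0.13, adjusted p = 6.9e-07), and the splicing regulator srsf5a read 11.06, 11.10 and 10.80 in adult 0.1 Gy livers, against 9.35, 9.04 and 9.30 in control livers (1.75 ± 0.13, adjusted p = 1.3e-06). Both groups were tight in each. The splicing factors sf3b5 (-1.16) and hnrnpl (-1.16) fell, and without control replicate 3 the count of higher genes was 5. In chromatin, 22 of 59 were lower and 8 higher, with the heterochromatin protein cbx1a (-1.51 ± 0.17, adjusted p = 1.8e-05) and the remodeler chd2 (-1.35 ± 0.13, adjusted p = 8e-06) lower and the linker histone h1-10 at 8.21, 8.85 and 9.43 in adult 0.1 Gy livers, against 7.22, 5.81 and 5.84 in control livers (2.54 ± 0.38, adjusted p = 0.00019). The chromatin count of lower genes was 12 without control replicate 2 and 14 without control replicate 3 or adult 0.1 Gy replicate 3, and that of higher genes was 5 without adult 0.1 Gy replicate 3. In fits that left out 1 array at most 20 chromatin genes were called lower. The linker histone histh1l1, named among the largest increases, was not counted in the chromatin list. Of chromatin genes 6 were lower and 2 higher without the 4 arrays.

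Proteasome subunits had 17 of 37 called lower and 2 higher (median -0.33), for example psmd9 (-0.68) and psmd12 (-0.68). There were 11 lower without control replicate 2 or 3 and 2 without the 4 arrays, and 0 higher without adult 0.1 Gy replicate 1 or control replicate 2 or 3. Of 52 ubiquitin enzymes 17 were lower and 7 higher, and the conjugating enzymes ube2nb (-1.52 ± 0.18, adjusted p = 3.5e-05) and ube2al (1.67 ± 0.16, adjusted p = 8e-06) moved in opposite directions. The count of higher ubiquitin genes was 4 without control replicate 3, and 4 were called each way without the 4 arrays. Cytosolic and mitochondrial chaperones had 13 of 40 lower and 4 higher, and 6 and 1 without the 4 arrays. The Hsp40 genes dnajb1b (-1.60 ± 0.27, adjusted p = 0.00046) and dnajb6b (-1.19 ± 0.12, adjusted p = 8.2e-06), the Hsp90 activator ahsa1b (-1.53 ± 0.19, adjusted p = 4.3e-05) and the mitochondrial chaperonin hspd1 (-1.43 ± 0.20, adjusted p = 0.00011) fell. The heat-inducible hsp70.3 read 4.27, 4.14 and 4.28 in adult 0.1 Gy livers, against 4.27, 4.01 and 4.18 in control livers (0.08, adjusted p = 0.6), near the bottom of the scale in both groups.

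Tubulins had 9 of 18 called lower and 1 higher (median -0.25), and 2 and 1 without the 4 arrays. The α-tubulin tuba5 read 9.85, 9.68 and 9.66 in adult 0.1 Gy livers, against 10.99, 11.42 and 11.48 in control livers (-1.56 ± 0.13, adjusted p = 2.7e-06), tubb2b read 7.5, 7.67 and 7.76 in adult 0.1 Gy livers, against 10.21, 10.78 and 10.84 in control livers, and tuba2 rose (1.22 ± 0.21, adjusted p = 0.00053). Tubulin genes are close in sequence, so probe sets of this family may read several members. Actin cytoskeleton genes had 10 of 26 lower and 1 higher, with 3 lower without the 4 arrays, with actb1 at 9.68, 9.37 and 9.49 in adult 0.1 Gy livers, against 11.95, 12.13 and 11.92 in control livers (-2.49 ± 0.18, adjusted p = 1.1e-06) and the Arp2/3 subunits arpc5a (-0.99) and arpc5b (-0.84) lower. Cell cycle genes had 7 of 41 higher and 7 lower. The inhibitor cdkn1bb read 8.73, 8.85 and 9.01 in adult 0.1 Gy livers, against 6.44, 7.14 and 7.16 in control livers (1.95 ± 0.20, adjusted p = 1.2e-05), and the cyclin ccnd1 read 6.84, 7.35 and 7.43 in adult 0.1 Gy livers, against 8.42, 8.81 and 8.42 in control livers (-1.34 ± 0.19, adjusted p = 0.00012). The inhibitor was higher and the cyclin lower in every irradiated pool, and the count of higher cell cycle genes was 4 without control replicate 2 or 3. Of cell cycle genes 1 was higher and 2 were lower without the 4 arrays.

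Lysosome and autophagy genes were among the lists with more increases than decreases, with 16 of 40 called higher and 5 lower (median 0.21), and 5 and 0 without the 4 arrays. The autophagy kinase ulk1b read 8.40, 9.26 and 9.94 in adult 0.1 Gy livers, against 6.57, 6.46 and 6.18 in control livers (2.79 ± 0.30, adjusted p = 1.6e-05), and the autophagosome protein map1lc3a read 10.68, 11.01 and 10.96 in adult 0.1 Gy livers, against 9.62, 9.01 and 8.57 in control livers (1.82 ± 0.22, adjusted p = 3.5e-05). The lysosomal membrane protein lamp1b (1.07) and the cathepsin ctsla (0.96) rose, and a proton pump subunit, atp6v0d1, fell (-0.81). The count of lower genes was 2 without control replicate 2 or 3 and 3 without adult 0.1 Gy replicate 1 or 2 or adult 1.0 Gy replicate 1 or 3.

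Solute carriers had 18 of 87 called higher and 16 lower (median 0.14), and 13 and 8 without the 4 arrays. The cationic amino acid transporter slc7a3a read 6.56, 4.98 and 7.01 in adult 0.1 Gy livers, against 3.74, 3.72 and 3.37 in control livers (2.57 ± 0.42, adjusted p = 0.00034), and slc3a2b, the partner chain of several amino acid transporters, read 5.73, 5.19 and 6.68 in adult 0.1 Gy livers, against 3.27, 3.82 and 3.72 in control livers (2.26 ± 0.32, adjusted p = 0.00012). The mitochondrial carriers slc25a43 (2.80 ± 0.30, adjusted p = 1.4e-05) and slc25a39 (-2.16 ± 0.37, adjusted p = 0.00053) moved in opposite directions. MAP kinase and phosphatase genes had 7 of 44 higher and 14 lower (6 and 5 without the 4 arrays), with mknk2b, mknk2a (1.5) and dusp22a (2.27) higher and mknk1 lower (-1.17). Extracellular matrix genes had 3 of 32 higher and 4 lower (1 and 2 without the 4 arrays), with the collagen chaperone serpinh1b lower (-1.07 ± 0.11, adjusted p = 1e-05), and egg-yolk and oestrogen response genes had 3 of 11 higher and 1 lower (1 and 0 without the 4 arrays). Of the cell type markers 4 were called, and they are named here after their values were seen. The biliary markers epcam (1.0 ± 0.16, adjusted p = 0.00028) and krt18a.1 (0.51 ± 0.12) and the neutrophil marker mpx (0.67 ± 0.16) rose, the hepatocyte marker ces2a fell (-0.64 ± 0.16). Other probe sets gave -0.12 for mpx and 0.0028 for ces2a and were not called. The call of krt18a.1 was lost without adult 0.1 Gy replicate 3, that of mpx without adult 0.1 Gy replicate 1 or 3, and that of ces2a without any 1 adult 0.1 Gy array or control replicate 2 or 3. Of 5 tested hepatocyte markers 4 had a positive difference (median 0.18), and ces2a was the only negative one. Of 5 tested biliary markers 4 were positive and 1 negative, and of 7 leukocyte markers 5 were positive and 2 negative. Summed biliary markers were 13.4 to 13.6 against 13.2 to 13.4.

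**Figure D4:**
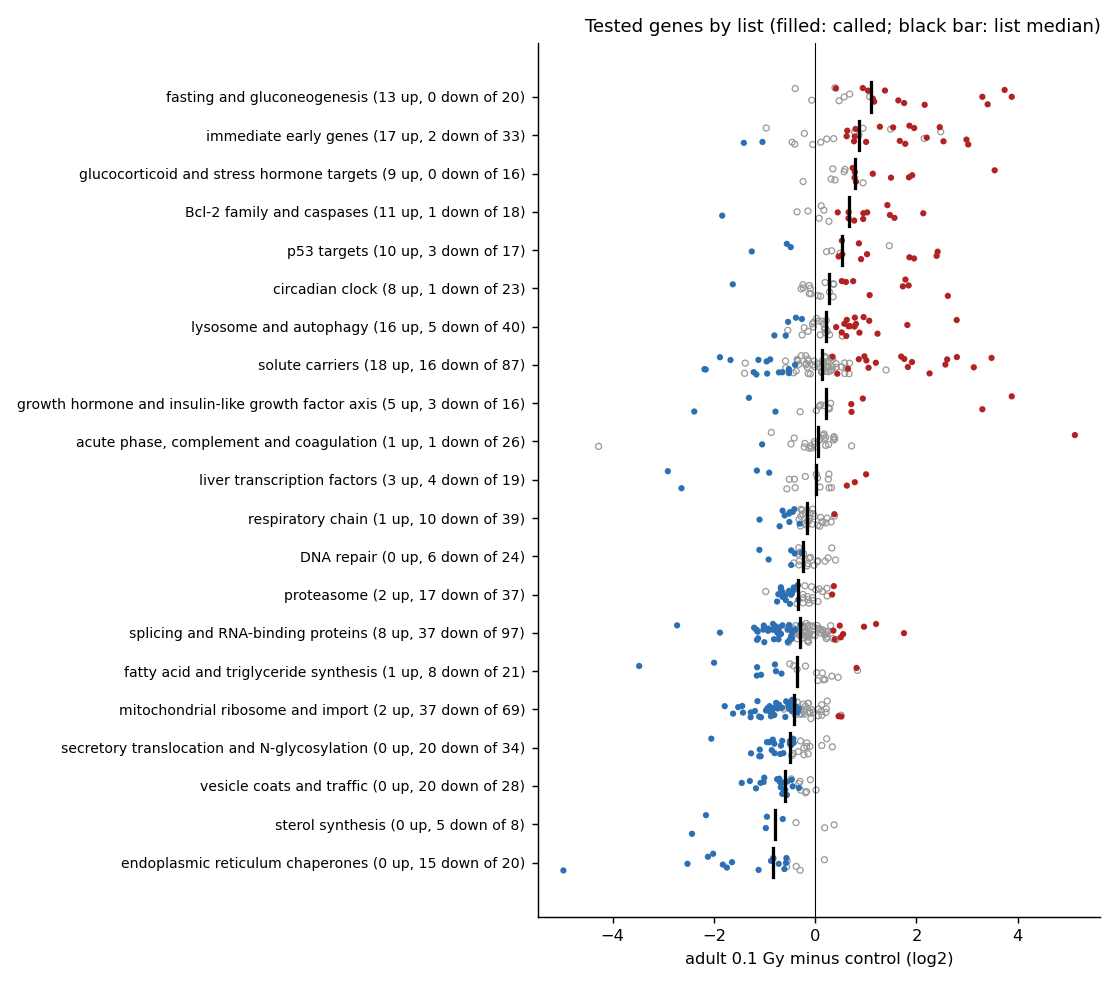
Difference between adult 0.1 Gy and control livers (log2, horizontal axis) of each tested gene in 21 lists (vertical axis), with filled points for called genes, red higher and blue lower, open grey points for genes not called, and a black bar at the list median. The medians run from 1.11 for fasting genes to -0.83 for chaperones of the endoplasmic reticulum.

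The 2 doses were compared in the adult 0.1 Gy and adult 1.0 Gy groups. The difference itself uses no control array, but the F-test over the groups and the estimate of the spread include the controls. Adult 1.0 Gy replicate 3 stood apart for other tissues, with summed muscle markers of 9.06 to 9.33 at 0.1 Gy against 9.24 to 12.4 at 1.0 Gy, and its ins signal was the highest of the 3 adult 1.0 Gy pools. Of 8634 probe sets, 7 were called (0.0811%), all higher at 0.1 than at 1.0 Gy, and 1077 had an unadjusted p below 0.05. Adult 0.1 Gy arrays differed from adult 1.0 Gy arrays by 0.323 to 0.536 root mean square log2 units. The deiodinase dio2, which activates thyroid hormone, read 11.02, 11.498 and 11.82 in controls, 9.17, 9.53 and 10.21 at 0.1 Gy and 7.88, 6.96 and 8.12 at 1.0 Gy, a difference between the adult doses of 1.98 ± 0.32 (adjusted p = 0.043). The groups descended with dose without overlap. The kinase pim1 read 5.67, 5.57 and 6.13 in controls, 8.33, 8.0 and 8.41 at 0.1 Gy and 7.01, 7.22 and 7.11 at 1.0 Gy (1.13 ± 0.17, adjusted p = 0.027), and the Polycomb group gene pcgf5b read 3.36, 3.32 and 3.36 in controls, 4.37, 4.96 and 4.68 at 0.1 Gy and 3.75, 3.91 and 3.69 at 1.0 Gy (0.89 ± 0.15, adjusted p = 0.044). Both were highest at 0.1 Gy and lowest in controls. The pcgf5b values lie at the low end of the scale. The other tested probe set of pcgf5b differed from control by 1.94 at 0.1 Gy and was not called between the doses.

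The remaining 4 genes were lower at 1.0 Gy than in either other group. The hormone gene igf1 read 9.58, 9.95 and 9.94 in controls, 9.44, 9.60 and 9.54 at 0.1 Gy and 8.6, 8.75 and 8.54 at 1.0 Gy (0.90 ± 0.14, adjusted p = 0.028). The kynurenine aminotransferase kyat3.2 read 7.04, 7.79 and 7.78 in controls, 7.62, 7.54 and 7.48 at 0.1 Gy and 6.35, 6.46 and 6.44 at 1.0 Gy (1.13 ± 0.17, adjusted p = 0.027). The gene pbldp read 10.64, 10.61 and 10.61 in controls, 10.02, 9.60 and 9.74 at 0.1 Gy and 8.46, 8.36 and 9.08 at 1.0 Gy (1.15 ± 0.19, adjusted p = 0.044), and the mitochondrial dehydrogenase hsd17b10 read 6.66, 6.98 and 6.91 in controls, 7.10, 6.94 and 7.32 at 0.1 Gy and 6.15, 6.38 and 6.18 at 1.0 Gy (0.88 ± 0.12, adjusted p = 0.027). For igf1, kyat3.2 and hsd17b10 the controls overlapped the 0.1 Gy pools. For pbldp, like dio2, the groups descended with dose without overlap. Against control, dio2, pbldp, pim1 and pcgf5b were called at 0.1 Gy, dio2 and pbldp no longer without the 4 arrays, and igf1, kyat3.2 and hsd17b10 were not called. The count of 7 changed with the arrays used. It was 51 without control replicate 1, 31 without adult 0.1 Gy replicate 2, 0 without adult 0.1 Gy replicate 1 or 3 or embryo 0.1 Gy replicate 2 or 3, 1 without adult 1.0 Gy replicate 1 or 3, 2 without adult 1.0 Gy replicate 2 and 4 without control replicate 2 or embryo 1.0 Gy replicate 1, and 32 without the 4 arrays.

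**Figure D5:**
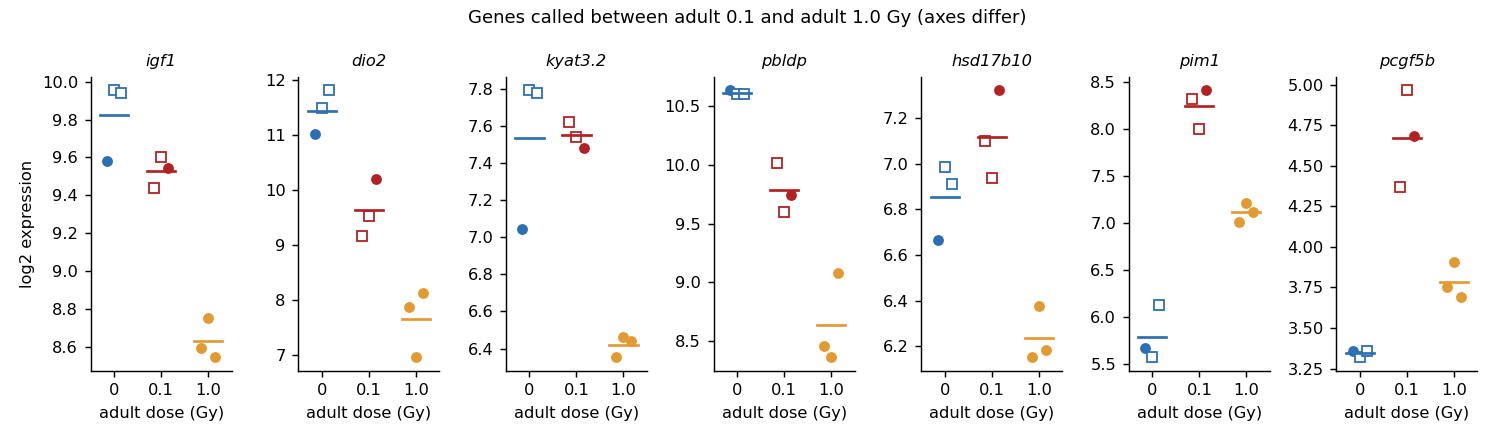
Log2 expression (vertical axes, which differ) of the 7 genes called between the adult doses in each control, adult 0.1 Gy and adult 1.0 Gy array, ordered by dose in Gy (horizontal axis), with a line at the mean of 3 and open squares for arrays whose source name reads as the other group. Dio2 and pbldp descend with dose, and pim1 is highest at 0.1 Gy.

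No other gene described above was called between the doses. For hspa5 the adult 1.0 Gy arrays read 5.84, 7.49 and 6.10, and the difference of 0.1 from 1.0 Gy was -0.21, 95% interval -0.96 to 0.55. For igfbp1b they read 11.19, 11.39 and 10.74 (-0.09, 95% interval -1.05 to 0.87), and for bbc3 8.15, 7.62 and 7.23 (0.08, 95% interval -0.52 to 0.69). For cebpa they read 6.49, 6.61 and 7.11 (1.63, 95% interval 0.72 to 2.53), and for socs3a 7.8, 7.52 and 7.13 (2.05, 95% interval 0.98 to 3.12). The last 2 intervals lie above 0 for single genes, and neither passed after adjustment over all probe sets (adjusted p = 0.14 and 0.13). The intervals of hspa5, igfbp1b and bbc3 span 0 and leave room for differences of the size of their bounds.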

How the data were processed

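RNA from livers pooled from a pair of males was hybridised to 15 GeneChip Zebrafish Genome Arrays. The authors background-corrected, quantile-normalized and summarised the arrays by RMA, and the deposited values are log2 expression per probe set. Such values are not absolute, and quantile normalization removes any global shift between arrays. After removal of 115 manufacturer controls, 15502 probe sets remained, and the 8634 whose interquartile range reached 0.2 were tested. Limma 3.58.1 in R 4.3.3 was fitted with 5 group means by title on all 15 arrays. The filter, the groups, the F-test and the threshold follow the study's methods, the contrast of this dose alone was set here, and the filter passed a different number of probe sets than in the study. Calls required that the F-test and the contrast both had a p below 0.05 after Benjamini-Hochberg adjustment. The fit was tested on simulated data. Each gene was read by its tested probe set of highest mean. Genes named for the dose comparison alone were read by the probe set called there. In the platform annotation 10795 probe sets had 1 symbol. Named genes were the 15 largest increases and decreases without overlap between the groups, up to 8 members of each of 45 gene lists, textbook members whatever their value, genes the study measured by PCR that could be matched, and all genes called between the doses. Members and lists were chosen with earlier results of these data known, and 6 list entries were dropped as not members. In all, 29 alternatives were run. Depth is not defined for arrays, and 3 per group limit precision.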

Additional observations from a re-analysis of the deposited data

Results flagged for a closer look

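In adult livers, 7 genes were called between 0.1 and 1.0 Gy. The contrast of these groups was adjusted over all 8634 probe sets. The number of calls ran from 0 to 51 when 1 array was left out, so the set of genes is not stable. The differences on the log2 scale, 0.1 minus 1.0 Gy, were 0.90 for igf1, 1.98 for dio2, 1.13 for kyat3.2, 1.15 for pbldp, 0.88 for hsd17b10, 1.13 for pim1 and 0.89 for pcgf5b. All 3 adult 0.1 Gy pools lay above all 3 adult 1.0 Gy pools in each of these genes, which were selected by the same contrast. Groups of 3 arrays are too small for a test of single deviating arrays.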

How the results depend on the processing

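The comparison with controls gave 2882 to 3396 called probe sets, 2616 to 2967 of them shared with the 2967, with no interquartile range filter, with no F-test requirement, after centring on array medians, after a further quantile normalization and with a trended, robust variance, and it gave 4184 with array weights and 2600 when fitted on the 6 arrays alone. Other settings moved the count by more than 1.5 times. It was 1295 of 1947 tested with an interquartile range of at least 0.5, 765 when a difference of at least 1 log2 unit was also asked for, 923 without the 4 arrays with conflicting source names, 1235 without controls 2 and 3, and 1790 without adult 0.1 Gy arrays 1 and 2. With the 6 arrays grouped by source name it was 0, with 747 at an unadjusted p below 0.05 by limma, and of 184 named genes called 172 then had the opposite sign. Leaving out 1 array gave 2161, without control replicate 3, to 3051. The dose comparison had 4 calls with no interquartile range filter, 0 with the stricter one, 12 with a trended, robust variance, 47 with array weights, 4 with the minimum difference, 32 without the 4 arrays, and 0 to 51 when 1 array was left out.

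Replicate numbers did not pair the arrays. Deviations of same-numbered adult 0.1 Gy and control arrays correlated at 0.12, -0.05 and -0.06, and not every array correlated best with its own number. With the number as a replicate block 2696 probe sets were called, 2653 of them shared with the fit without it, and 7 between the doses.

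Of the 184 named genes called, 180 kept the call in every fit that left out 1 array, the exceptions being gatm, mpx, ces2a and krt18a.1, and 58 lost it without the 4 arrays, where 1 array stood for each group. Under the settings other than grouping by source name, signs turned for 2 named genes that were called, mpx at -0.12 and ces2a at 0.0028 when read by the probe set of highest interquartile range, and otherwise only for genes not called. The cause was not tested. Without the 4 arrays nfkb2 gave -0.21, xbp1 0.54 and atf4b 0.11. Without controls 2 and 3 nfkb2 gave -0.13, xbp1 0.20 and hsp70.3 -0.043. Without adult 0.1 Gy arrays 1 and 2 kyat3.2 gave -0.055, atf3 0.0078, egr1 -0.20 and atf4b 0.21. With array weights kyat3.2 gave -0.20, nr3c1 0.084, per2 0.073, hnf4a -0.18 and atf4b 0.066. Centring on medians gave -0.021 for kyat3.2 and quantile normalization 0.038 for per2. Without control replicate 1 kyat3.2 gave -0.24, nr3c1 0.062, per2 0.14 and hnf4a -0.29, without adult 0.1 Gy replicate 1 kyat3.2 gave -0.025 and atf4b 0.20, and without adult 0.1 Gy replicate 2 egr1 gave -0.12. The values furthest to the other side when 1 array was left out were 1.57 for egr1 without control replicate 3, -0.42 for nr3c1 and 0.31 for hnf4a without control replicate 2. List counts of 2 or fewer changed by 1 gene when single arrays were left out in some such lists, and by 2 in the proteasome, innate immunity and leukocyte marker lists. The count of leukocyte markers called higher was 3 without control replicate 1. Precision is limited by 3 arrays a group, and a gene at 3 to 5 log2 units lies at the low end of the scale.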

Other observations

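Many zebrafish genes are kept as duplicates whose symbols differ only in a closing a or b. Other such pairs, like sdha and sdhb, are distinct genes. Pairs were formed by symbol alone, so the counts are not of duplicates only. Both members were tested in 318 pairs. Both were called higher in 20 pairs, both lower in 36, 1 only in 125 and neither in 122. The members were called in opposite directions in 15. Over all tested genes 12.3% were called higher and 24.2% lower. Whether paired genes moved apart more or less often than unpaired genes was not tested. The genes named here were chosen after their values were seen. In the thiol dioxygenase pair, log2 expression of adob was 8.46, 8.66 and 8.49 in adult 0.1 Gy livers, against 10.47, 10.56 and 10.63 in control livers (-2.02 ± 0.13), while that of adoa was 7.51, 7.86 and 7.82 in adult 0.1 Gy livers, against 6.83, 6.93 and 6.89 in control livers (0.85 ± 0.12). The repressors of RNA polymerase III maf1a (1.26 ± 0.23) and maf1b (-0.84 ± 0.16) also moved in opposite directions. So did the phosphatidylinositol kinases pi4k2a (0.58 ± 0.13) and pi4k2b (-1.33 ± 0.21), which are paired here by symbol only.

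More than 1 tested probe set was available for 704 genes. Among those of them that were called, 161 had all probe sets called in 1 direction, 136 had some that were not called and 3 had probe sets called in opposite directions. These 3 were dnajb6a (0.51 ± 0.17 and -0.81 ± 0.12), igbp1 (-0.71 ± 0.14 and 0.32 ± 0.11) and ppm1ba (-0.58 ± 0.11 and 0.38 ± 0.12). Of the 2967 called probe sets, 622 had no single gene symbol, as had 7 of the 50 largest differences.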
